A study of Mus musculus with 6 samples.

Results

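The genes described here encode the enzymes that build cholesterol and fatty acids, together with the SREBP transcription factors that control them. They were taken by gene symbol from the deposited table of mouse heart expression, which lists 16229 genes. Of the 31 genes asked for, 30 were listed, and Mvd was not analysed here. 29 of the 30 passed the filter on low values, a mean of at least 0 log2 CPM over the 6 libraries, and were tested beside 12981 genes in all. Lss lay below the filter.

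Poly-A RNA was sequenced from hearts of male wild-type C57BL/6 mice, a common inbred laboratory strain, aged 8 to 10 weeks. The rivaroxaban group (replicates 14 and 15) had been given 3 mg/kg of rivaroxaban, an inhibitor of coagulation factor Xa, for 7 days. The dabigatran group (replicates 10 and 12) had been given 10 mg/kg of dabigatran, an inhibitor of thrombin (factor IIa), for 7 days. The untreated group had 2 libraries (replicates 8 and 9). All groups share the strain, the sex and the age range. The extraction text describes the tissue of every sample as infarct with its surroundings, and whether untreated mice underwent surgery is not stated in the labels. Nor do they state that the libraries of a group came from different animals, and the spread on which the p-values rest may then be technical. Library depth, recovered from the deposited values, lay between 27176892 and 43798222 reads in the listed genes. The tested members had between 33 and 8528 reads in a library, the lowest in Elovl6 and the highest in Me1. The cardiomyocyte genes Myh6 and Tnnt2 were at 15.18 to 15.25 and 13.66 to 13.80 log2 CPM in every library, as in heart muscle.

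Cells make cholesterol from acetyl-CoA through mevalonate, squalene and lanosterol, and they make fatty acids from the same acetyl-CoA through malonyl-CoA. When membrane sterol is scarce, the escort protein SCAP carries the SREBP factors from the endoplasmic reticulum to the Golgi apparatus, where proteases free their DNA-binding part. INSIG proteins hold SCAP back when sterol is plentiful, and the freed SREBPs switch on most genes described here, Insig1 among them. Heart muscle mainly burns fatty acids, which it takes up from the blood.

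SREBPs act at promoters, usually next to factors that bind CCAAT and GC boxes, so 3 member promoters are shown to let these elements be seen in place. Hmgcs1 was the single member with a match to the sterol element searched, and Insig1 had the lowest p-value of all members in the rivaroxaban comparison. Nsdhl is an example with several CCAAT boxes, where most members have at least 1. The sequences are from RefSeq on GRCm38.p6, all on the plus strand, 5′ to 3′, and start 200 bases before the RefSeq start site. Those of Hmgcs1 and Nsdhl end at the last base before that site. Insig1 ends 50 bases before it, since GENCODE M21 places the gene's start 49 bases further upstream. Capitals mark the sterol element core (TCACNCCAC), CCAAT boxes (CCAAT, or ATTGG on the other strand) and E-boxes (CACGTG). GC boxes (GGGCGG, or CCGCCC on the other strand) are left in small letters.
Hmgcs1, chr13:119690151-119690350: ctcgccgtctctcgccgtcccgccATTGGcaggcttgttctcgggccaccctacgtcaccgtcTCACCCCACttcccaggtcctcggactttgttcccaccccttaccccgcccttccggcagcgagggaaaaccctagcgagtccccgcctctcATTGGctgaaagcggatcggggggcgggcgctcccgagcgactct
Insig1, chr5:28071212-28071362: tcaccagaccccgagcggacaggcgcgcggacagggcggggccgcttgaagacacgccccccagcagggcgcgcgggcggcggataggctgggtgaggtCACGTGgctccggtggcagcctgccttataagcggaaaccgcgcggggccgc
Nsdhl, chrX:72918321-72918520: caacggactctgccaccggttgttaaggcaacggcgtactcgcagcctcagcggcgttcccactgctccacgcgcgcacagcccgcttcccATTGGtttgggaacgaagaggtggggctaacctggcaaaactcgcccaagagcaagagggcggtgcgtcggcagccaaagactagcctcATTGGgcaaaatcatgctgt

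The sterol core of Hmgcs1 begins 137 bases before the start site, between CCAAT boxes that begin 176 and 45 bases before it. In Nsdhl the 2 CCAAT boxes of the printed stretch begin 109 and 20 bases before the start, and the E-box of Insig1 begins 101 bases before it. 24 of the 30 listed members have a promoter in the RefSeq table, which spans 250 bases before to 50 bases after each start, and both strands were searched. This window is longer than the printed stretches. It holds 4 CCAAT boxes in Hmgcs1, 4 in Nsdhl and 1 in Insig1, where the box begins 216 bases before the start. A CCAAT box was present in 20 of these 24 (83.3%), against 41.1% of all 27025 genes with a promoter and 42.5% of the tested ones. The 4 members without one were Acaca, Acat2, Elovl6 and Scap. A GC box (GGGCGG) stood in 20 of 24 members as well (83.3%), against 38.2% of all genes and 67.5% of the tested ones. E-boxes stood in 5 of 24 (Dhcr7, Hsd17b7, Insig1, Sc5d and Scap; 20.8%, against 8.09% of all genes and 11.7% of the tested ones). The sterol core was found in 1 of 24 (4.17%), against 1.44% of all genes and 1.36% of the tested ones. None of these motifs contains another, several members have more than 1 promoter window, and a match is a description of letters, not of binding.

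The first question was whether either anticoagulant moved this pathway in the heart. No member passed a limma adjusted p of 0.05 in any comparison: 0 of 29 for rivaroxaban against untreated hearts, where 2.46% of all tested genes passed, 0 of 29 for dabigatran against untreated hearts (1.88% of all tested genes), and 0 of 29 for rivaroxaban against dabigatran hearts (0.077%). At an unadjusted p under 0.05 there were 6 members for rivaroxaban, 4 for dabigatran and 1 between the drugs, where 17.2%, 14.7% and 8.43% of all tested genes reached it. A limma voom test on the recovered reads, chosen after seeing the data, also called 0 members in each comparison. The differences were small as well as uncalled. The median log2 change of the 29 members was -0.06 for rivaroxaban against untreated hearts, -0.02 for dabigatran against untreated hearts and -0.02 for rivaroxaban against dabigatran hearts, where all tested genes had medians of 0.01, 0.003 and 0.001. The median size of a member's log2 change, sign ignored, was 0.07, 0.09 and 0.06 in these comparisons, against 0.10, 0.09 and 0.08 over all tested genes.

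Each interval gives the range of changes that this fit leaves possible for 1 member, without adjustment for the number of genes. Its width rests on 3 residual and 7.75 prior degrees of freedom, the prior being taken from all tested genes. If the libraries of a group came from the same animal, it does not cover variation between animals. For rivaroxaban against untreated hearts, the 95% interval of 26 of 29 members lay within a 1.5-fold change in either direction, as it did for 81.6% of all tested genes. For dabigatran against untreated hearts this held for 25 of 29 members (81.7% of all tested genes), and between the drugs for 28 of 29 (84.6%). All 29 intervals lay within a 2-fold change for rivaroxaban against untreated and against dabigatran hearts. For dabigatran against untreated hearts 28 did, Elovl6 being the exception. In bulk tissue, fewer cells of a type and less RNA per cell cannot be told apart.

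**Figure D1:**
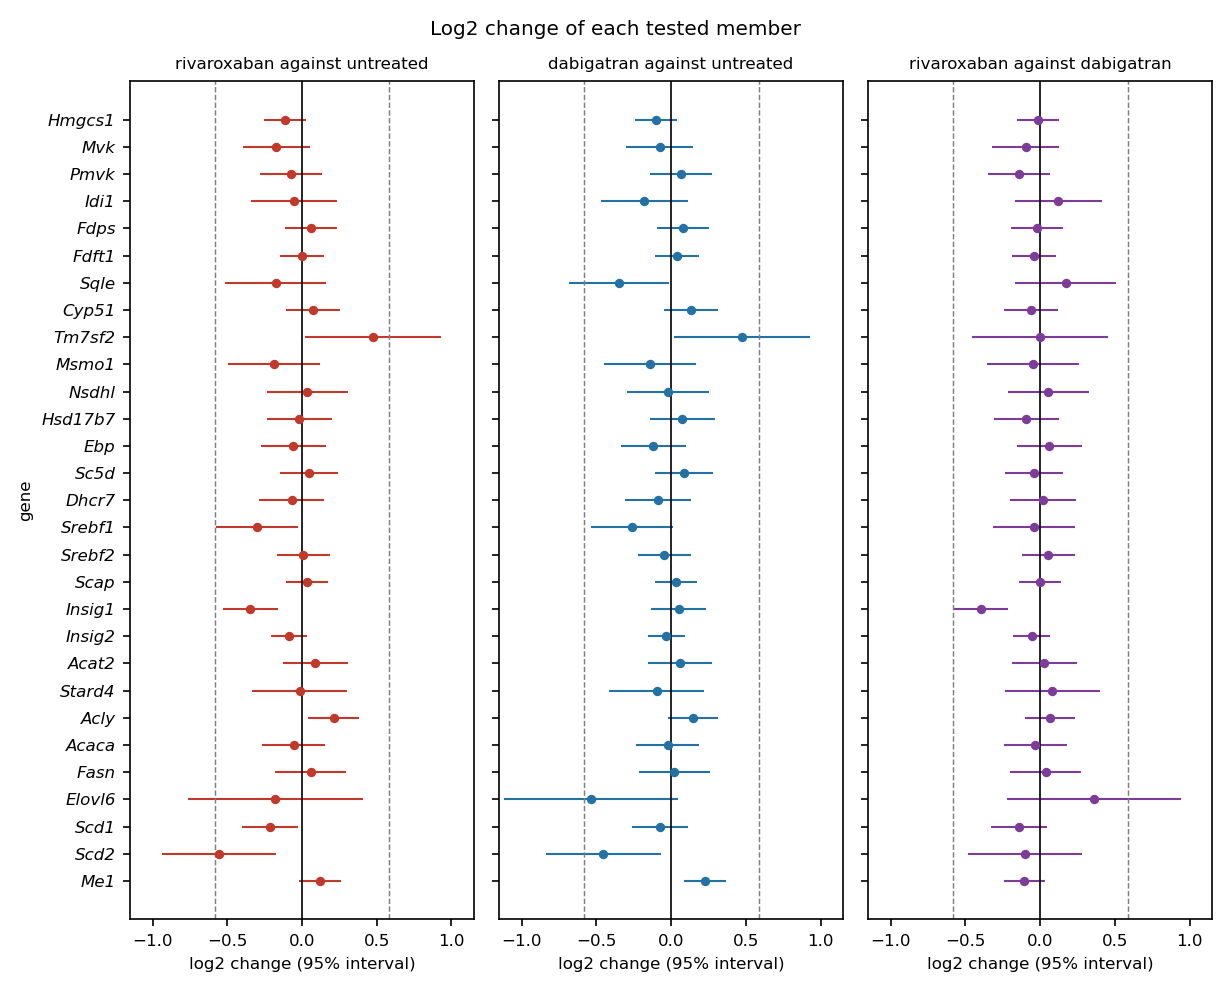
Log2 change of each of the 29 tested members (x axis, with its 95% interval; y axis, genes in pathway order) for rivaroxaban against untreated, dabigatran against untreated and rivaroxaban against dabigatran hearts, 2 libraries per group. Dashed lines mark a 1.5-fold change in either direction, and 26, 25 and 28 of the 29 intervals lie wholly between them.

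Libraries of the compared groups did not overlap for 13 of 29 members in rivaroxaban against untreated hearts, where 50.6% of all tested genes did not overlap. 5 of these were higher and 8 lower. For dabigatran against untreated hearts 13 of 29 did not overlap (6 higher, 7 lower; 43.6% of all tested genes), and between the drugs 9 of 29 (1 higher, 8 lower in rivaroxaban hearts; 39.7%). Among all tested genes without overlap, 3393 were higher and 3181 lower with rivaroxaban, and 2965 higher and 2701 lower with dabigatran. Between the drugs 2509 were higher and 2645 lower in rivaroxaban hearts. The estimate was above 0 in 12 of 29 members for rivaroxaban against untreated hearts, where 51.5% of all tested genes were above 0. It was above 0 in 13 members for dabigatran against untreated hearts (50.8% of all tested genes) and in 11 between the drugs (50.4%). Both drugs were set against the same untreated libraries, so the counts against untreated hearts are not independent.

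The untreated pair differed from each other across these genes. Replicate 9 was higher than replicate 8 for 23 of 29 members (79.3%), against 48.6% of all tested genes, and their median gap was 0.13 on the log2 scale, against 0.10 over all tested genes. The rivaroxaban pair differed by a median of 0.07, with replicate 15 higher for 12 of 29 members. The dabigatran pair differed by a median of 0.07 too, with replicate 12 higher for 19 of 29. Without untreated replicate 9 the median log2 change of the members was 0.04 for rivaroxaban and 0.06 for dabigatran, above 0 in place of below it. Without dabigatran replicate 10 the dabigatran median was 0.01, also above 0. The sign of both medians against untreated hearts therefore rested on single libraries.

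**Figure D2:**
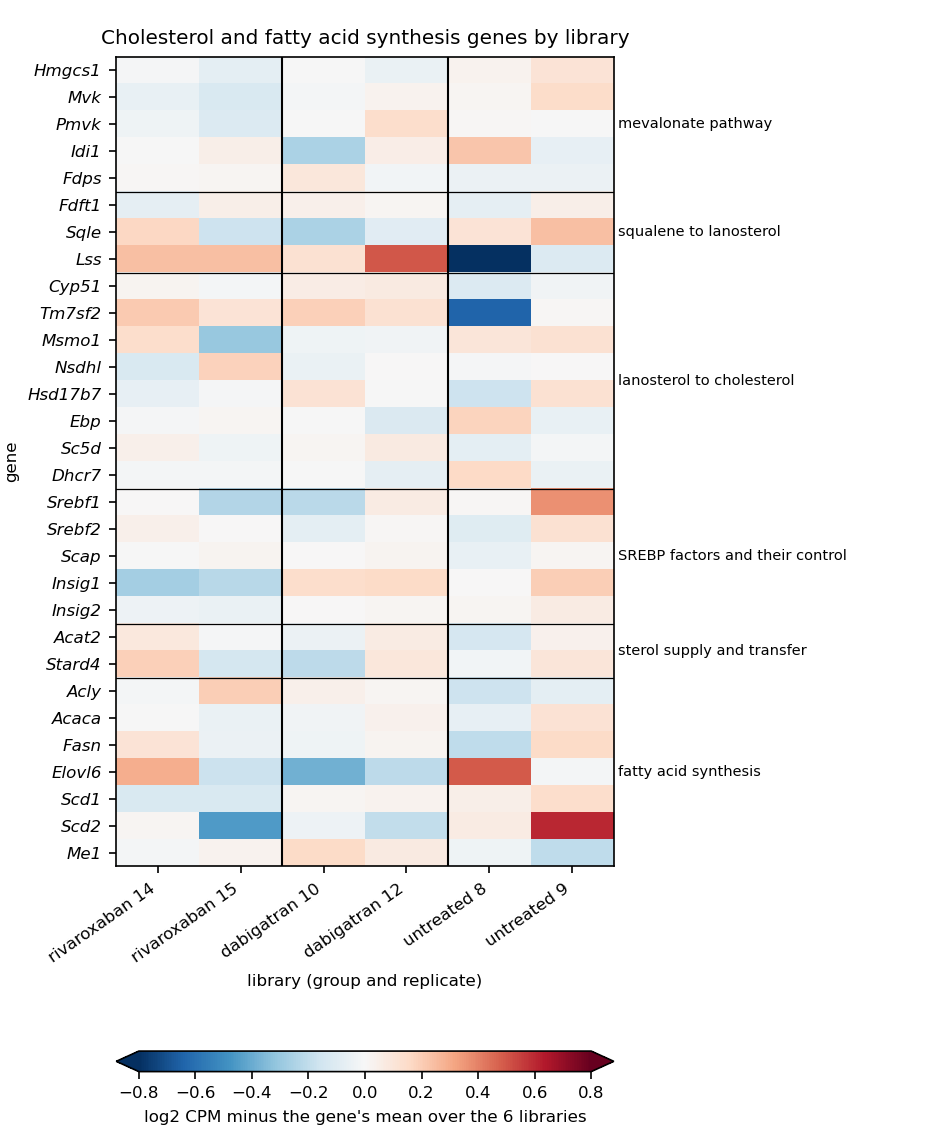
Each of the 30 listed members (rows, grouped by role) in each of the 6 libraries (columns), coloured by log2 CPM minus the gene's mean over the 6 libraries. Scd2 and Srebf1 are darkest red in untreated replicate 9, Tm7sf2 and the barely detected Lss darkest blue in untreated replicate 8, and Insig1 is blue in both rivaroxaban libraries.

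The mevalonate enzymes turn acetyl-CoA units into the isoprenoid farnesyl diphosphate. Hmgcs1, the cytosolic synthase of hydroxymethylglutaryl-CoA, had 5.68 and 5.62 log2 CPM in rivaroxaban hearts, 5.69 and 5.64 in dabigatran hearts and 5.72 and 5.80 in untreated hearts. All 4 treated libraries lay below both untreated ones, by a log2 change of -0.11 with rivaroxaban (limma adjusted p = 0.401) and -0.10 with dabigatran (limma adjusted p = 0.523). The gene lies on chromosome 13 from 119690379 to 119708260 on GRCm38 (ENSMUSG00000093930). Mvk, mevalonate kinase, had 3.33 and 3.27 log2 CPM in rivaroxaban hearts, 3.37 and 3.42 in dabigatran hearts and 3.41 and 3.54 in untreated hearts. Pmvk, the kinase of the next step, had 3.72 and 3.64 log2 CPM in rivaroxaban hearts, 3.74 and 3.89 in dabigatran hearts and 3.76 and 3.74 in untreated hearts. In both kinases the rivaroxaban libraries were the lowest of the 6, with log2 changes against untreated hearts of -0.17 and -0.07. Idi1, the isomerase of isopentenyl diphosphate, had 3.48 and 3.53 log2 CPM in rivaroxaban hearts, 3.23 and 3.54 in dabigatran hearts and 3.70 and 3.42 in untreated hearts, and all groups overlapped. Fdps, which joins isoprene units to farnesyl diphosphate, had 4.36 and 4.36 log2 CPM in rivaroxaban hearts, 4.44 and 4.32 in dabigatran hearts and 4.30 and 4.30 in untreated hearts. Its treated libraries all lay above the untreated ones, by log2 changes of 0.06 with rivaroxaban and 0.08 with dabigatran. The lowest limma adjusted p among the 5 mevalonate enzymes was 0.401 with rivaroxaban and 0.523 with dabigatran.

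Squalene is made from farnesyl diphosphate, oxidised and closed into the ring system of lanosterol. Fdft1, squalene synthase, had 5.86 and 5.98 log2 CPM in rivaroxaban hearts, 5.98 and 5.95 in dabigatran hearts and 5.86 and 5.98 in untreated hearts. The rivaroxaban and untreated pairs thus spanned nearly the same range (log2 change 0.001, SE 0.07). Sqle, squalene epoxidase, an oxygen-requiring step, had 2.58 and 2.25 log2 CPM in rivaroxaban hearts, 2.16 and 2.32 in dabigatran hearts and 2.52 and 2.66 in untreated hearts. Both dabigatran libraries lay below both untreated ones, with a log2 change of -0.35 (SE 0.15, 95% interval -0.68 to -0.01, limma adjusted p = 0.323), and the rivaroxaban libraries spread across both groups. Lss, the cyclase that makes lanosterol, had 15 and 12 reads in rivaroxaban hearts, 10 and 22 in dabigatran hearts and 4 and 10 in untreated hearts, too few to compare. Without the filter its log2 changes were 0.79 (SE 0.43) for rivaroxaban and 0.86 (SE 0.43) for dabigatran, with limma adjusted p = 0.414 and 0.418.

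The lanosterol branch removes methyl groups and moves double bonds until cholesterol is left. Cyp51, the lanosterol demethylase, had 4.15 and 4.11 log2 CPM in rivaroxaban hearts, 4.19 and 4.20 in dabigatran hearts and 4.02 and 4.10 in untreated hearts. Every treated library lay above both untreated ones, by a log2 change of 0.07 with rivaroxaban and 0.13 with dabigatran. Tm7sf2, a sterol reductase, had 2.10 and 1.999 log2 CPM in rivaroxaban hearts, 2.09 and 2.02 in dabigatran hearts and 1.25 and 1.90 in untreated hearts. The 4 treated libraries lay close together, and untreated replicate 8 stood apart at 66 reads. The log2 change was 0.47 with rivaroxaban (SE 0.21, 95% interval 0.02 to 0.93, limma adjusted p = 0.274) and 0.48 with dabigatran (SE 0.21, 95% interval 0.02 to 0.93, limma adjusted p = 0.317). Without untreated replicate 8 both were 0.15. Exons of Tm7sf2 share 12.1% of their bases with those of Vps51 on the same strand, so its reads are uncertain.

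Msmo1 and Nsdhl take the methyl groups off in turn. Msmo1, a methylsterol oxidase, had 3.31 and 2.86 log2 CPM in rivaroxaban hearts, 3.13 and 3.14 in dabigatran hearts and 3.26 and 3.29 in untreated hearts. Rivaroxaban replicate 15 was the lowest and replicate 14 the highest of all 6. Nsdhl, a decarboxylating sterol dehydrogenase, had 2.99 and 3.29 log2 CPM in rivaroxaban hearts, 3.06 and 3.11 in dabigatran hearts and 3.10 and 3.11 in untreated hearts. Here the same 2 rivaroxaban libraries took the opposite order. Hsd17b7, the ketosterol reductase, had 4.55 and 4.60 log2 CPM in rivaroxaban hearts, 4.73 and 4.61 in dabigatran hearts and 4.45 and 4.74 in untreated hearts. Ebp, a sterol isomerase, had 3.99 and 4.01 log2 CPM in rivaroxaban hearts, 3.99 and 3.88 in dabigatran hearts and 4.17 and 3.94 in untreated hearts. In both enzymes the untreated pair spanned most or all of the treated values. Sc5d, a sterol desaturase, had 3.93 and 3.85 log2 CPM in rivaroxaban hearts, 3.90 and 3.95 in dabigatran hearts and 3.81 and 3.87 in untreated hearts. Dhcr7, which reduces the last double bond on the way to cholesterol, had 3.78 and 3.79 log2 CPM in rivaroxaban hearts, 3.80 and 3.73 in dabigatran hearts and 3.96 and 3.75 in untreated hearts. Over the 8 enzymes of this branch the median log2 change was 0.01 with rivaroxaban and 0.03 with dabigatran, 4 estimates being above 0 and 4 below in each.

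Among the regulators, the lowest p of all members with rivaroxaban was that of Insig1, which retains SCAP and is itself an SREBP target. Insig1 had 4.39 and 4.44 log2 CPM in rivaroxaban hearts, 4.80 and 4.82 in dabigatran hearts and 4.66 and 4.86 in untreated hearts. Both rivaroxaban libraries lay below all others, and the dabigatran pair lay within the untreated range. Against untreated hearts the log2 change with rivaroxaban was -0.34 (SE 0.08, 95% interval -0.53 to -0.16), a ratio of 0.787, which missed the threshold (limma adjusted p = 0.0603). It passed under median centring (limma adjusted p = 0.0474) and with a robust prior (limma adjusted p = 0.0384), and not with any of the 4 libraries left out, where the log2 change ranged from -0.44 to -0.25 and the limma adjusted p from 0.0591 to 0.253. Against dabigatran hearts the log2 change was -0.40 (SE 0.08, 95% interval -0.58 to -0.21, limma adjusted p = 0.172), the single member at an unadjusted p under 0.05 in that comparison. Dabigatran against untreated hearts gave 0.05 (limma adjusted p = 0.824). Insig1 lies on chromosome 5 from 28071363 to 28078662 on GRCm38 (ENSMUSG00000045294), and its promoter stretch is printed above.

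Insig2, the isoform that is not a classic SREBP target, had 6.12 and 6.10 log2 CPM in rivaroxaban hearts, 6.16 and 6.17 in dabigatran hearts and 6.17 and 6.22 in untreated hearts. Its groups were ordered without overlap, but close to each other, with a log2 change of -0.09 for rivaroxaban against untreated hearts (limma adjusted p = 0.451) and -0.03 for dabigatran (limma adjusted p = 0.846). Scap had 5.35 and 5.37 log2 CPM in rivaroxaban hearts, 5.35 and 5.37 in dabigatran hearts and 5.29 and 5.36 in untreated hearts, a difference of 0.03 with either drug. Exons of Scap share 13.2% of their bases with a transcript on the other strand. Srebf2, the factor that favours cholesterol genes, had 5.44 and 5.40 log2 CPM in rivaroxaban hearts, 5.33 and 5.41 in dabigatran hearts and 5.30 and 5.53 in untreated hearts. All 4 treated values fell inside the untreated pair's range. Srebf1, whose products favour fatty acid genes, had 5.78 and 5.54 log2 CPM in rivaroxaban hearts, 5.56 and 5.84 in dabigatran hearts and 5.78 and 6.14 in untreated hearts. Rivaroxaban replicate 14 and untreated replicate 8 were nearly equal, and untreated replicate 9 was the highest. The log2 change was -0.30 with rivaroxaban (SE 0.12, 95% interval -0.58 to -0.02, limma adjusted p = 0.253) and -0.26 with dabigatran (limma adjusted p = 0.366). With 1 library left out the rivaroxaban value ranged from -0.48 to -0.12. Srebf1 lies on chromosome 11 from 60199089 to 60222581 on GRCm38 (ENSMUSG00000020538), on the minus strand.

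The thiolase and the sterol carrier showed no separation. Acat2, the cytosolic thiolase that starts the sterol route, had 3.90 and 3.80 log2 CPM in rivaroxaban hearts, 3.77 and 3.88 in dabigatran hearts and 3.68 and 3.85 in untreated hearts. Stard4, a cytosolic sterol carrier, had 3.30 and 2.96 log2 CPM in rivaroxaban hearts, 2.90 and 3.19 in dabigatran hearts and 3.08 and 3.20 in untreated hearts. Groups overlapped for both genes in every comparison.

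The fatty acid genes held 3 of the 6 members at an unadjusted p under 0.05 with rivaroxaban, namely Scd2, Acly and Scd1. Acly, which splits citrate into cytosolic acetyl-CoA, had 5.65 and 5.87 log2 CPM in rivaroxaban hearts, 5.70 and 5.68 in dabigatran hearts and 5.50 and 5.59 in untreated hearts. All treated libraries exceeded both untreated ones, with a log2 change of 0.21 for rivaroxaban (SE 0.08, limma adjusted p = 0.186) and 0.15 for dabigatran (SE 0.08, limma adjusted p = 0.409). Me1, malic enzyme, which supplies NADPH, had 7.53 and 7.57 log2 CPM in rivaroxaban hearts, 7.69 and 7.61 in dabigatran hearts and 7.51 and 7.34 in untreated hearts. Its groups did not overlap in any comparison, with a log2 change of 0.12 for rivaroxaban (SE 0.06, limma adjusted p = 0.360) and 0.23 for dabigatran (SE 0.06, 95% interval 0.09 to 0.37, limma adjusted p = 0.113). The Me1 value had the lowest p of all members for dabigatran.

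Acaca, the acetyl-CoA carboxylase that feeds synthesis, had 3.85 and 3.80 log2 CPM in rivaroxaban hearts, 3.83 and 3.89 in dabigatran hearts and 3.79 and 3.97 in untreated hearts. Fasn, the synthase itself, had 5.04 and 4.88 log2 CPM in rivaroxaban hearts, 4.89 and 4.95 in dabigatran hearts and 4.72 and 5.08 in untreated hearts. For both enzymes every treated value lay between those of the untreated pair, and the log2 changes of Fasn were 0.06 with rivaroxaban and 0.02 with dabigatran. Elovl6, which lengthens palmitate, had 1.05 and 0.58 log2 CPM in rivaroxaban hearts, 0.37 and 0.54 in dabigatran hearts and 1.25 and 0.74 in untreated hearts. Both dabigatran libraries were the lowest of the 6. The log2 change was -0.54 against untreated hearts (SE 0.26, 95% interval -1.12 to 0.05, limma adjusted p = 0.381), and rivaroxaban against dabigatran hearts gave 0.36 (SE 0.26, 95% interval -0.22 to 0.94, limma adjusted p = 0.782). Elovl6 rests on 33 to 73 reads per library, so its intervals are wide.

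The desaturases Scd1 and Scd2 put the first double bond into stearate and palmitate. Scd1 had 3.83 and 3.83 log2 CPM in rivaroxaban hearts, 3.96 and 3.98 in dabigatran hearts and 3.996 and 4.09 in untreated hearts. The groups were ordered without overlap, with a log2 change for rivaroxaban of -0.22 (SE 0.09, limma adjusted p = 0.231) and for dabigatran of -0.07 (limma adjusted p = 0.747). Scd2 had 4.62 and 4.15 log2 CPM in rivaroxaban hearts, 4.57 and 4.41 in dabigatran hearts and 4.67 and 5.21 in untreated hearts. Treated libraries all lay below untreated ones, but rivaroxaban replicate 14 and untreated replicate 8 were nearly equal. The log2 change was -0.55 with rivaroxaban (SE 0.17, 95% interval -0.94 to -0.17, limma adjusted p = 0.130) and -0.45 with dabigatran (SE 0.17, 95% interval -0.84 to -0.07, limma adjusted p = 0.251). Without 1 library it ranged from -0.82 to -0.28 with rivaroxaban and from -0.72 to -0.18 with dabigatran. Scd2 lies on chromosome 19 from 44293674 to 44306864 on GRCm38 (ENSMUSG00000025203). Scd genes are close copies of each other, and how shared reads were counted is not given in the sources used here. The other listed copies went the opposite way. Scd4 had 3.90 and 4.59 log2 CPM in rivaroxaban hearts, 4.55 and 4.29 in dabigatran hearts and 4.12 and 3.37 in untreated hearts. It did not pass for either drug, and its rivaroxaban and untreated libraries overlapped. Scd3, below the filter at 12 to 52 reads, was higher in every treated library than in the untreated ones.

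Markers of other cell types were read beside these genes, since adipocytes and Schwann cells make much lipid. The adipocyte markers Adipoq, Plin1, Cidec and Retn had 1 to 21 reads in every library, at or near 0 CPM, and Lep and Slc7a10 were not among the listed genes. Cfd and Car3, also low, differed within the rivaroxaban pair, with 22 and 59 reads of Cfd and 8 and 73 of Car3 in replicates 14 and 15. Of the 12 adipocyte markers 10 were listed and 5 tested. Their summed level was 804 to 888 CPM in rivaroxaban hearts, 870 to 903 CPM in dabigatran hearts and 694 to 816 CPM in untreated hearts, almost all of it Fabp4 and Plin4, which heart capillaries and muscle also express. Plin4, a lipid droplet coat protein, rose with rivaroxaban (log2 change 0.53, limma adjusted p = 0.0264) and dabigatran (0.63, limma adjusted p = 0.0143). Its calls ended without untreated replicate 9 (limma adjusted p = 0.124 and 0.0717), without rivaroxaban replicate 15 (0.241) and without dabigatran replicate 10 (0.0801). The myelin gene Mbp had 147 and 120 reads in rivaroxaban hearts, 136 and 217 in dabigatran hearts and 166 and 229 in untreated hearts. Mbp fell with rivaroxaban (log2 change -0.65, limma adjusted p = 0.0403), a call that ended without any 1 of its 4 libraries (limma adjusted p 0.0668 to 0.236). All 6 Schwann cell markers were listed and 5 tested. Their summed level was 90.9 to 95.9 CPM in rivaroxaban hearts, 81.1 to 88.4 CPM in dabigatran hearts and 85.1 to 92.8 CPM in untreated hearts. Scd2 is abundant in myelinating cells, and like Mbp its highest library was untreated replicate 9. The part of these cells in its values was not tested.

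All 4 mesothelial markers were listed and tested, and they summed to 25.2 to 31.7 CPM in rivaroxaban hearts, 33.4 to 37.8 CPM in dabigatran hearts and 57.3 to 61.9 CPM in untreated hearts. All 4 fell with rivaroxaban (limma adjusted p 8.14e-04 to 0.0270), and Msln and Upk3b fell with dabigatran (0.0163 and 0.0115). The dabigatran calls of Msln and Upk3b ended without dabigatran replicate 10 (0.0969 and 0.0792) and without untreated replicate 8 (0.0658 and 0.0939), that of Msln also without untreated replicate 9 (0.0863). With rivaroxaban, Krt19 did not pass without rivaroxaban replicate 15 (0.0689) or untreated replicate 8 (0.0507). Upk1b did not pass without rivaroxaban replicate 14 (0.150), rivaroxaban replicate 15 (0.0808) or untreated replicate 8 (0.196). Cardiomyocyte markers, of which 6 of 8 were listed, summed to 70241 to 71957 CPM in rivaroxaban hearts, 72856 to 73256 CPM in dabigatran hearts and 74093 to 74713 CPM in untreated hearts, with 0 of 6 called for either drug. Of 6 fibroblast, 5 endothelial and 6 macrophage markers, all tested, Flt1, a VEGF receptor of endothelial cells, rose with dabigatran (log2 change 0.29, limma adjusted p = 0.0376) and the others did not pass against untreated hearts. The Flt1 call ended without any 1 of its 4 libraries (0.0583 to 0.188). The fibroblast sum was 917 to 955 CPM in rivaroxaban hearts, 893 to 939 CPM in dabigatran hearts and 903 to 964 CPM in untreated hearts. The endothelial sum was 1036 to 1111 CPM in rivaroxaban hearts, 1039 to 1115 CPM in dabigatran hearts and 998 to 1052 CPM in untreated hearts. The macrophage sum was 271 to 312 CPM in rivaroxaban hearts, 280 to 299.7 CPM in dabigatran hearts and 268 to 300.1 CPM in untreated hearts. Brown adipocyte markers, 3 of 4 listed, summed to 63.4 to 65.8 CPM in rivaroxaban hearts, 74.5 to 81.5 CPM in dabigatran hearts and 68.2 to 76.5 CPM in untreated hearts. 1 of 4 red cell and 1 of 4 hepatocyte markers were listed. The red cell sum was 1.23 to 1.81 CPM in rivaroxaban hearts, 1.70 to 2.54 CPM in dabigatran hearts and 0.216 to 0.807 CPM in untreated hearts, and that marker, Slc4a1, rose with dabigatran (limma adjusted p = 0.0487), a call that ended without dabigatran replicate 10 (0.275), dabigatran replicate 12 (0.0747) or untreated replicate 9 (0.123). It also ended under quantile normalization (0.0720), with a robust prior (0.103) and with the 2 compared groups alone (0.0686). The hepatocyte sum was at most 0.485 CPM in any library.

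Levels between genes were compared as log2 of CPM per kb of exon, with GENCODE M21 exon lengths, over the 6 libraries together (mean ± SD, n = 6). Me1 was the most abundant member at 5.60 ± 0.12, followed by Insig2 at 4.36 ± 0.04, Fdft1 at 3.85 ± 0.06 and Hmgcs1 at 3.49 ± 0.07. The ranges of the first 4 did not touch. From Hmgcs1 down to Scap at 2.45 ± 0.03, each neighbour in the order overlapped the next: Srebf1 3.28 ± 0.22, Acly 3.26 ± 0.12, Insig1 3.03 ± 0.20, Pmvk 2.97 ± 0.08, Ebp 2.79 ± 0.10, Srebf2 2.56 ± 0.08 and Acat2 2.46 ± 0.08. A second run of overlapping levels went from Fdps at 2.27 ± 0.05 to Dhcr7 at 1.25 ± 0.08, with Hsd17b7, Scd2, Cyp51, Mvk, Idi1, Scd1, Sc5d, Nsdhl and Fasn in between. Stard4 and Msmo1 followed at 0.61 ± 0.15 and 0.54 ± 0.17. The lowest were Sqle at -0.07 ± 0.20, Acaca at -0.25 ± 0.07, Tm7sf2 at -0.27 ± 0.33, Elovl6 at -1.98 ± 0.34 and Lss at -5.01 ± 0.65. Union exon length understates a gene whose main transcript is short, so the order is approximate.

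**Figure D3:**
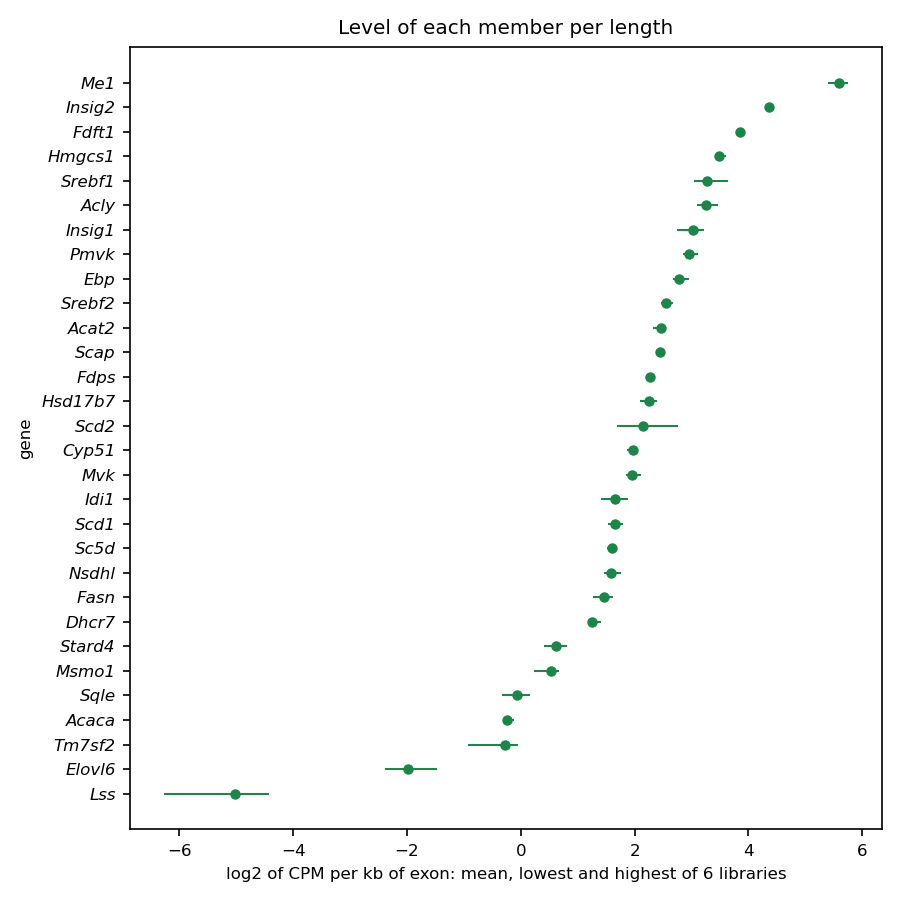
Level of each of the 30 listed members as log2 of CPM per kb of exon (x axis; points are means, bars run from the lowest to the highest of the 6 libraries), ordered from high to low. Me1 stands highest at 5.60 and Lss lowest at -5.01, and most members lie between 1.25 and 3.49.

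Within pairs of genes on the same per-length scale, Insig2 exceeded Insig1 2.51-fold on average. Their log2 difference in level was 1.56 and 1.49 in rivaroxaban hearts, 1.19 and 1.19 in dabigatran hearts and 1.34 and 1.20 in untreated hearts, so the gap was widest in both rivaroxaban libraries. Srebf1 exceeded Srebf2 1.65-fold and Scd2 exceeded Scd1 1.42-fold. The level of Acacb, the carboxylase isoform whose malonyl-CoA restrains fatty acid oxidation at mitochondria, was 43.3 times that of Acaca. That ratio is approximate, since it rests on exon lengths of 9632 bases for Acacb and 17074 for Acaca. Without division by length their means over the 6 libraries were 8.46 and 3.85 log2 CPM. Acacb had 8.44 and 8.48 log2 CPM in rivaroxaban hearts, 8.53 and 8.55 in dabigatran hearts and 8.31 and 8.44 in untreated hearts, and did not pass (limma adjusted p = 0.451 with rivaroxaban and 0.182 with dabigatran). Me1 exceeded Acly 5.04-fold.

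Of 97 tested genes in 5 neighbouring lists, 2 passed for rivaroxaban (2.06%, against 2.46% of all tested genes), 4 for dabigatran (4.12%, against 1.88%) and 0 between the drugs (against 0.077%). For rivaroxaban that share is near the share over all tested genes, and nothing particular to these lists is read from any of these counts. Of 11 tested other sterol and isoprenoid enzymes and 18 tested genes of SREBP activation and turnover, 0 were called in any comparison (limma), with 3 and 3 at an unadjusted p under 0.05 for rivaroxaban, 2 and 1 for dabigatran and 0 and 1 between the drugs. Their median log2 changes were -0.10 and 0.06 with rivaroxaban and 0.05 and 0.03 with dabigatran. Of 25 other genes of fatty acid synthesis, elongation and desaturation, 0 rose and 1 fell with rivaroxaban (median -0.02), and 1 rose and 1 fell with dabigatran (median 0.04). Of 25 genes of sterol uptake, transport and efflux, 0 were called with rivaroxaban (median 0.07) and 1 rose with dabigatran (median 0.06). Of 18 genes of triglyceride and phospholipid synthesis, 1 rose with each drug (medians 0.04 and 0.05). Between the drugs 0 genes of these 3 lists were called, with 4, 4 and 2 at an unadjusted p under 0.05. The voom fit was run for the whole table and gave 314, 235 and 8 calls over all genes in the 3 comparisons, against 319, 244 and 10 here.

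The gene that fell with both drugs was Mid1ip1, whose protein binds acetyl-CoA carboxylase and promotes its assembly into active polymers. Mid1ip1 had 6.46 and 6.52 log2 CPM in rivaroxaban hearts, 6.75 and 6.37 in dabigatran hearts and 7.05 and 7.04 in untreated hearts. All treated libraries lay below the 2 untreated ones, which were nearly identical. Mid1ip1 fell by 0.55 on the log2 scale with rivaroxaban (SE 0.10, limma adjusted p = 0.0162) and fell by 0.48 with dabigatran (SE 0.10, limma adjusted p = 0.0365). The rivaroxaban call ended without any 1 of its 4 libraries (limma adjusted p 0.0697 to 0.103). The dabigatran call ended without dabigatran replicate 12 (0.0528), untreated replicate 8 (0.162) or untreated replicate 9 (0.106). It lies on chromosome X from 10715013 to 10719690 on GRCm38.

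Thrsp, a related regulator of lipogenesis induced by thyroid hormone, had 5.06 and 4.98 log2 CPM in rivaroxaban hearts, 5.77 and 5.45 in dabigatran hearts and 4.75 and 4.99 in untreated hearts. The dabigatran libraries stood above all others. Thrsp rose 1.67-fold with dabigatran (log2 change 0.74, SE 0.11, limma adjusted p = 0.00856), a call that ended without untreated replicate 8 (0.0658). With rivaroxaban the log2 change against untreated hearts was 0.15 (limma adjusted p = 0.497). Rivaroxaban against dabigatran hearts gave -0.59 (SE 0.11, limma adjusted p = 0.103), which passed only without dabigatran replicate 12 (0.0296). Thrsp lies on chromosome 7 from 97412938 to 97417730.

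Lpin3, a phosphatidate phosphatase on the way to triglyceride, had 3.88 and 3.96 log2 CPM in rivaroxaban hearts, 3.76 and 3.84 in dabigatran hearts and 3.19 and 3.06 in untreated hearts. The 4 treated libraries were close together and well above the untreated pair. Lpin3 rose 1.73-fold with rivaroxaban (log2 change 0.79, SE 0.10, limma adjusted p = 0.00204) and 1.59-fold with dabigatran (0.67, SE 0.10, limma adjusted p = 0.00848). Its calls held with any 1 library left out, at limma adjusted p-values up to 0.0407 and 0.0443. It lies on chromosome 2 from 160880670 to 160906002.

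Vldlr, a receptor for triglyceride-rich lipoproteins, had 8.49 and 8.64 log2 CPM in rivaroxaban hearts, 8.65 and 8.71 in dabigatran hearts and 8.35 and 8.43 in untreated hearts. Vldlr rose 1.23-fold with dabigatran (log2 change 0.30, SE 0.06, limma adjusted p = 0.0376), a call that ended without any 1 of its 4 libraries (0.0655 to 0.197) and under quantile normalization (0.0720). With rivaroxaban the log2 change was 0.18 (limma adjusted p = 0.165). Vldlr lies on chromosome 19 from 27216484 to 27254231.

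**Figure D4:**
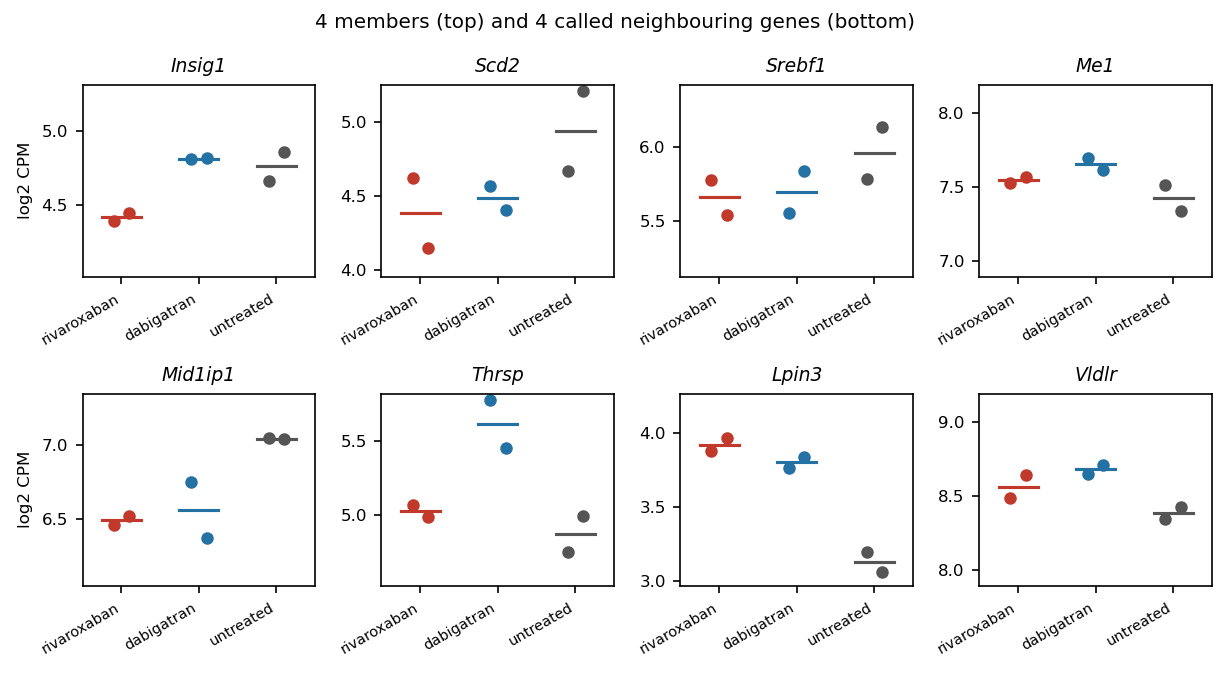
Log2 CPM (y axis, the same span in every panel) in each library of the rivaroxaban, dabigatran and untreated groups (x axis), with points for libraries and lines for group means. The 4 members in the top row did not pass the test; below them, Mid1ip1 lies at 6.37 to 6.75 in treated hearts, against 7.04 and 7.05 in untreated hearts, and Lpin3 lies at 3.76 to 3.96 in treated hearts, against 3.06 and 3.19 in untreated hearts.

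Reads of some members are uncertain because their exons overlap those of other genes and the strand setting of the counting is not given in the sources used here. Exons of Fdps share 26.7% of their bases with Gm43738 on the same strand, those of Fdft1 18.3% with Ctsb on the other strand, and those of Hmgcs1 12.1% with an antisense transcript.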

How the data were processed

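Poly-A RNA was sequenced in 6 heart libraries, 2 each from the rivaroxaban, dabigatran and untreated groups. Tools listed in the submitters' processing notes are STAR, Trim Galore, FastQC, bcl2fastq and edgeR, without versions, with build mm10; the read counter is not given in the sources used here. The deposited values are log2 CPM scaled by TMM by the authors, per the file headers. A floor of -4.04 in every library shrinks changes of low genes. Subtracting it gave whole reads for 100% of values under 200 steps (tolerance 0.02), and totals of 27176892 to 43798222.

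Genes averaging at least 0 log2 CPM were tested, 12981 of 16229, with limma 3.58.1 in R 4.3.3. The fit had 3 group means over 6 libraries with a mean-variance trend, 3 residual and 7.75 prior degrees of freedom. Tests were two-sided and Benjamini-Hochberg adjusted over all tested genes, threshold 0.05. The code was tested on simulated data. Members and neighbouring lists were chosen with earlier results of these data known. Every member is named, with full statistics for those that passed or that did not overlap at an absolute log2 change of at least 0.3; called genes of neighbouring lists are named, and other genes were chosen after their values were seen. Promoters are from RefSeq, exon lengths and gene coordinates from GENCODE M21. Alternatives covered filters, pseudocount, scaling, spread model, the samples in the fit and single libraries left out.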

Additional observations from a re-analysis of the deposited data

How the results depend on the processing

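The count of called members was 0 in every comparison and in every setting tried, with 1 exception. For rivaroxaban against untreated hearts it was 1, Insig1, under median centring and 1, again Insig1, with a robust prior. With each replicate left out in turn the count was 0 to 0 in all 3 comparisons. The alternatives were no filter, a stricter filter, log2(CPM + 1), 2 scalings, 2 spread models, the compared groups alone, 4 single libraries left out and voom, the last chosen after seeing the data. The median log2 change of the members ranged from -0.06 to 0.04 for rivaroxaban against untreated hearts, from -0.05 to 0.06 for dabigatran against untreated hearts and from -0.05 to -0.002 between the drugs with 1 library left out. Of 375 member values per comparison, 24, 15 and 22 changed sign. 36, 32 and 12 moved by more than the replicate SD, all of them with a library left out. Without the mean-variance trend no gene passed in any comparison (1938, 1728 and 984 genes at an unadjusted p under 0.05), and so none of the calls named above, Lpin3 included (limma adjusted p = 0.0620 and 0.123). With a robust prior Mid1ip1 did not pass for dabigatran (0.0928), nor Plin4 for either drug (0.148 and 0.126), nor Slc4a1 for dabigatran (0.103). With the compared groups alone, Mid1ip1 (0.0547) and Slc4a1 (0.0686) did not pass for dabigatran, and under quantile normalization Slc4a1 (0.0720) and Vldlr (0.0720) did not. A library left out leaves its group with 1 sample, which is then assumed to vary like the other groups. No paired analysis was possible because the groups share no replicate numbers.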
